A study of Mus musculus with 75 samples.

Results

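The genes described here were the 10 phosphodiesterases of the PDE1, PDE3, PDE4 and PDE5 families, taken by symbol from the 55536 genes of a lung RNA-seq count table: *Pde1a*, *Pde1b*, *Pde1c*, *Pde3a*, *Pde3b*, *Pde4a*, *Pde4b*, *Pde4c*, *Pde4d* and *Pde5a*. All 10 passed the filter on low counts. The study followed bleomycin-induced lung fibrosis over time in 75 male C57BL/6JRj mice aged 12 to 14 weeks, with poly(A) RNA of 1 lobe per mouse (the inferior lobe). Bleomycin sulphate, which injures the alveolar epithelium, was given once into the trachea (BLEO). Mice were killed on day 7 (n = 10), day 14, 21, 28 or 35 (n = 12 each) or day 42 (n = 7), and 10 control mice (CTRL) were labelled as saline-treated, whereas the protocol text calls the controls untreated. Only BLEO mice that had lost between 5% and 17% of body weight on day 6 entered the study, a selection that the CTRL mice did not pass, and 1 lobe stands for the lung of each mouse. Every BLEO group shares the same CTRL mice, so the 6 comparisons with CTRL are not independent of each other.

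Phosphodiesterases end cyclic nucleotide signals by hydrolysing cAMP and cGMP. PDE1 enzymes are switched on by calcium and calmodulin and act on both nucleotides, PDE3 enzymes act on cAMP and are held back by cGMP, PDE4 enzymes are specific for cAMP, and PDE5 is specific for cGMP. In the lung, cAMP raised through Gs-coupled receptors relaxes airway smooth muscle and restrains fibroblasts and inflammatory cells, and PDE4 and PDE5 are both targets of lung drugs (roflumilast and sildenafil). Each gene encodes several isoforms from separate promoters, and the counts used here sum all isoforms of a gene.

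RefSeq promoter windows (build GRCm38.p6, 250 bases before to 50 bases after a transcription start) were at hand for 8 of the 10 genes, 20 windows in all, with none for *Pde3a* and *Pde3b*. A cAMP-responsive promoter classically holds the element TGACGTCA, or its core TGACG, which lies within the full element. Both were searched on both strands, together with the GC box GGGCGG. No window of the 20 held TGACGTCA, which occurred in 1.79% of all 32851 windows of the table. The core occurred in 3 of the 20 windows, against 20.8% of all windows, 1 each in *Pde1a*, *Pde4a* and *Pde4b*. The GC box occurred in 35.7% of all windows, and among the members only in windows of *Pde1b*, *Pde4a* and *Pde5a*. The windows of 3 genes are shown, because *Pde5a* and *Pde4a* were lower than CTRL on most days while *Pde4b* was not. Genes not shown differed from this picture. The only window of *Pde4d*, called lower on 6 days, held neither a core nor a GC box. A window of *Pde1b*, called higher on 3 days, held 2 GC boxes. The third *Pde4a* window and the *Pde4b* windows not shown held no match. The capitals mark each TGACG or GGGCGG match on either strand, and a match is a description of the letters and not of a bound site. The *Pde5a* window (chr3:122728908-122729207, plus strand) held 1 GC box, the upstream *Pde4a* window (chr9:21165464-21165763, plus strand) held 4 overlapping or neighbouring GC boxes, the internal *Pde4a* window (chr9:21183851-21184150, plus strand) held 1 GC box and 1 core, and the first of the 4 *Pde4b* windows, which lies inside the annotated gene (chr4:102421305-102421604, plus strand) held 1 core.
Pde5a: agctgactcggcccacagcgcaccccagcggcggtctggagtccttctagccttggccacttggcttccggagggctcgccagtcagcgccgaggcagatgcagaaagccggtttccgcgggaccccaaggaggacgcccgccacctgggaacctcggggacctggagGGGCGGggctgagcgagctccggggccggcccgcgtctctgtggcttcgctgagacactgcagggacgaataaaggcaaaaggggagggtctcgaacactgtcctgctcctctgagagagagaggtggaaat
Pde4a, upstream start: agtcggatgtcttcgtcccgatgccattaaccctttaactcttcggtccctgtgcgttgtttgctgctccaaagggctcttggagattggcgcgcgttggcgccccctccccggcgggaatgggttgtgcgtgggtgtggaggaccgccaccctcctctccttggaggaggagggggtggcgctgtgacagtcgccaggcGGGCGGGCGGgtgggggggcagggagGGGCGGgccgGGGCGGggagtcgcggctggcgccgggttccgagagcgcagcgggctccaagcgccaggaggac
Pde4a, internal start: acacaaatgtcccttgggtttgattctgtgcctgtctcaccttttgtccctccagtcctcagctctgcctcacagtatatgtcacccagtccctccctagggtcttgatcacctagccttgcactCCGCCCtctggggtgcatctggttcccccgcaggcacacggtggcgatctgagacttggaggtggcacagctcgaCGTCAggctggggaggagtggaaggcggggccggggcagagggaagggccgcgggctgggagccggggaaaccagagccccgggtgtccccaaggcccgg
Pde4b, first window: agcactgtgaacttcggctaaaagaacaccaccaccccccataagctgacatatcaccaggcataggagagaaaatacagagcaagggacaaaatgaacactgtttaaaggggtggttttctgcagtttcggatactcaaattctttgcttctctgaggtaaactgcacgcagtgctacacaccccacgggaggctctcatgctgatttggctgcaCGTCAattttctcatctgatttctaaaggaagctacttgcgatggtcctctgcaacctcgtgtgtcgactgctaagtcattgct

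Library totals ran from 9240291 to 14665247 counts, with a median of 10677163. Markers of lung epithelium were present in every library, with summed type 2 cell markers (surfactant genes and partners) between 6786 and 32142 CPM (read counts scaled to the library total). The library of day 28 replicate 10 stood apart: its 8 skeletal muscle markers summed to 2024 CPM, against 4.14 to 17.9 CPM in the other 74 libraries, its cardiac muscle markers to 2668 CPM and its adipocyte markers to 1336 CPM. Day 7 replicate 8 had the next highest adipocyte sum, 411 CPM, where the remaining 73 libraries lay between 11.7 and 45.1 CPM. Results that rest on these libraries are given with and without them. In a whole lobe, fewer cells of a type and less RNA per cell cannot be told apart, which holds for every difference below.

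Per kilobase of exon, the only scale on which genes are compared with each other, *Pde5a* was the most abundant of the 10 in CTRL lungs at 36.2 ± 3.35 CPM per kilobase (SD, n = 10). *Pde3a* followed at 14.1 ± 0.868 and *Pde4b* at 12.6 ± 2.92, a pair whose gap was smaller than the SD of *Pde4b*. *Pde4b* was thus the leading PDE4 gene of these lungs, ahead of *Pde4a* at 3.46 ± 0.373, *Pde4d* at 1.80 ± 0.224 and *Pde4c* at 0.514 ± 0.104 CPM per kilobase. *Pde1b* (2.44 ± 0.342), *Pde3b* (2.04 ± 0.219) and *Pde1a* (1.43 ± 0.255) had levels in the range of *Pde4a* and *Pde4d*. *Pde1c* was the least abundant at 0.061 ± 0.0214 CPM per kilobase. The lengths are the union of all annotated exons, which for *Pde1c* comes to 20067 bases and exceeds any single transcript, so its level per kilobase is an underestimate of unknown size. At day 14 *Pde5a* had come down to 20.9 ± 6.47 and *Pde3a* to 8.74 ± 1.89 CPM per kilobase, while *Pde4b* stood at 12.5 ± 3.76.

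**Figure D1:**
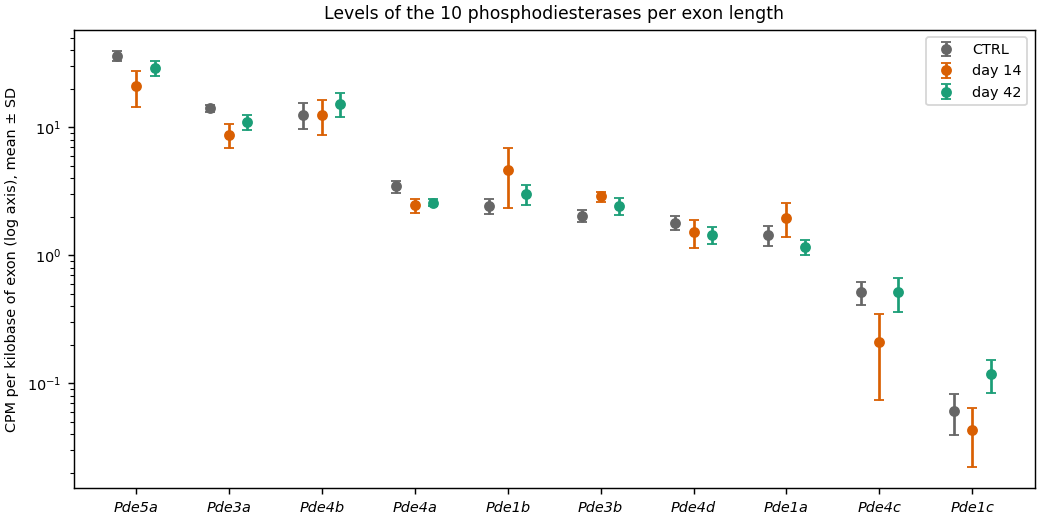
Mean level ± SD of each phosphodiesterase in CPM per kilobase of exon (log axis) in CTRL (n = 10), day 14 (n = 12) and day 42 (n = 7) lungs, ordered by the CTRL level. *Pde5a* led in all 3 groups, and *Pde4c* and *Pde1c* lay below 1 CPM per kilobase in each.

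Differences from CTRL were fitted for all 16221 genes that passed the filter, and a gene was called where the Benjamini-Hochberg adjusted p of edgeR's quasi-likelihood test was under 0.05. At day 7, 1 of the 10 phosphodiesterases was called higher and 5 lower, where 24.8% of all genes were called higher and 21% lower. At day 14, 3 were higher and 5 lower (32.4% and 29.9% of all genes). At day 21, 2 were higher and 5 lower (28.3% and 25.8%), at day 28, 3 were higher and 4 lower (24.1% and 19.2%), and at day 35, 2 were higher and 4 lower (16.9% and 13.1%). At day 42, 1 was higher and 3 lower (13.7% and 11% of all genes). The median log2 fold change (log2FC) of the 10 was -0.42 at day 7 and -0.37 at day 14, then between -0.17 and -0.14 from day 21 to day 42, where the median of all genes lay between -0.0024 and 0.018 on every day. The members called lower included *Pde3a*, *Pde4a* and *Pde4d* on all 6 days, and those called higher were genes of the PDE1 family and *Pde3b*. The count at day 42, with 7 mice, was the least settled: it fell to 2 in each of the fits without CTRL replicate 8, day 42 replicate 3 or day 42 replicate 6, to 1 with no filter on low counts, and rose to 8 where only the 2 groups were fitted.

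**Figure D2:**
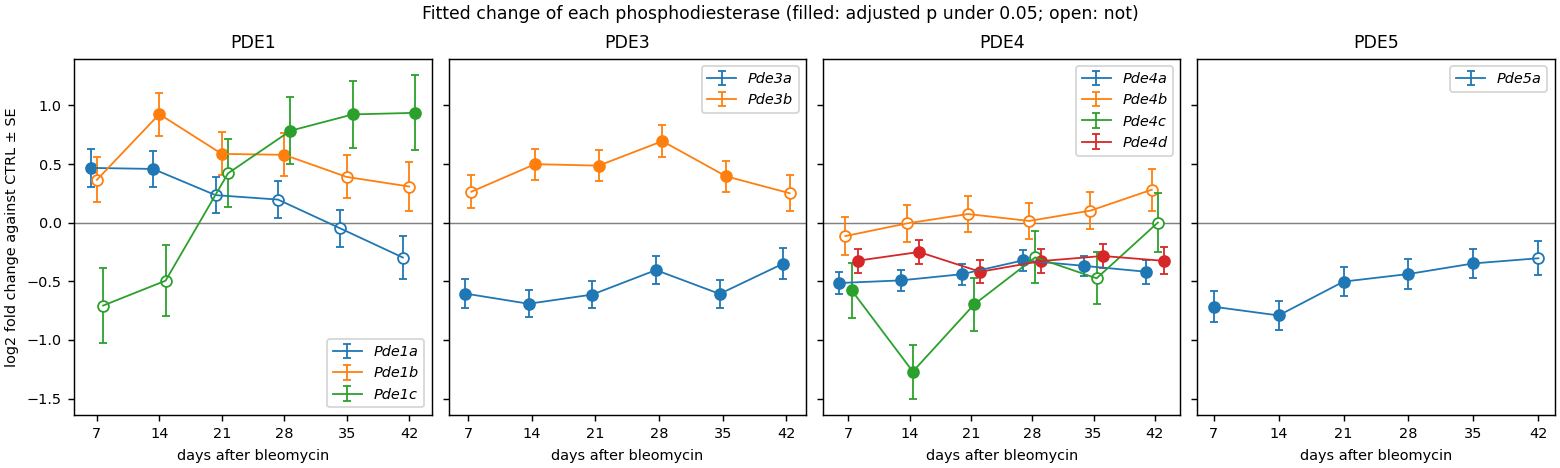
Fitted log2FC against CTRL (± SE) of each phosphodiesterase on 6 days after bleomycin, 1 panel per family; filled symbols have an adjusted p under 0.05. *Pde3a*, *Pde4a* and *Pde4d* were filled and below 0 on all days, *Pde4b* was open throughout, and *Pde1a* and *Pde1c* crossed 0 in opposite directions.

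Within the PDE4 family the 4 genes followed 3 courses. *Pde4a* and *Pde4d* were lower than CTRL on every day, *Pde4c* was lower early and back at the CTRL level by day 42, and *Pde4b* was called on no day. *Pde4a* (ENSMUSG00000032177, chr9:21165714-21213248, GRCm38) encodes a PDE4 enzyme known for its presence in many tissues. It lay between 22.8 and 31.4 CPM in the CTRL mice (median 25.3), between 15.1 and 25.3 at day 7 (median 17.4) and between 13.8 and 22.4 at day 14 (median 18.9). All 12 day 14 mice were below all CTRL mice, as were 9 of 10 at day 7, 11 of 12 at day 21, 9 of 12 at days 28 and 35, and 7 of 7 at day 42. The log2FC was -0.51 ± 0.0922 (SE) at day 7, with an edgeR adjusted p of 5.1e-06, and -0.42 ± 0.102 at day 42, adjusted p 0.00162. It was smallest at day 28, at -0.32 ± 0.0878 (adjusted p 0.00211), and in that group the library high in muscle markers had the highest *Pde4a*, 28.1 CPM. The level did not differ detectably among the 6 BLEO days (adjusted p 0.308), so *Pde4a* showed a step down by day 7 with no measured return: day 42 differed from day 14 by 0.07 ± 0.0985 (adjusted p 0.588).

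*Pde4d* (ENSMUSG00000021699, chr13:108449948-109953461), the PDE4 gene linked to airway smooth muscle and heart muscle contraction, was lower by less. Its CTRL values were 18 to 25.1 CPM (median 22.1), those of day 7 12.7 to 20.3 (median 17.4), of day 21 11.8 to 19.7 (median 16.2) and of day 42 13.3 to 20.3 (median 16.8). The groups overlapped on each day, with 4 to 9 mice of a group below all CTRL mice. The log2FC ran from -0.42 ± 0.0992 at day 21 (adjusted p 0.000276) to -0.25 ± 0.0989 at day 14 (adjusted p 0.0239), and the 6 BLEO days did not differ detectably (adjusted p 0.686). The day 14 group also held the single highest *Pde4d* value of the series, 29.7 CPM in replicate 8. The day 14 call was lost without day 14 replicate 2 (adjusted p 0.0541), day 14 replicate 3 (0.0544) or CTRL replicate 8 (0.0503), and with only the 2 groups in the fit (0.0553). The day 42 call (log2FC -0.33 ± 0.115, adjusted p 0.0304) was lost without day 42 replicate 3 (0.0958), day 42 replicate 4 (0.0553) or CTRL replicate 8 (0.0547).

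*Pde4c* (ENSMUSG00000031842, chr8:70723720-70751186) was the least abundant PDE4 gene, with 2 to 52 counts per library, and the one that moved most. It lay between 2.08 and 3.96 CPM in CTRL (median 2.78), between 1.25 and 3.46 at day 7 (median 1.70), between 0.199 and 3.18 at day 14 (median 1.11) and between 0.562 and 2.82 at day 21 (median 1.77). At day 14, 11 of 12 mice were below all CTRL mice, and the exception was replicate 10, the highest of its group. The log2FC was -1.27 ± 0.230 at day 14 (adjusted p 2.25e-06) and -0.70 ± 0.223 at day 21 (adjusted p 0.00627). At days 28 and 35 it was -0.30 ± 0.220 and -0.47 ± 0.222, and neither passed the test (adjusted p 0.282 and 0.0961), though day 35 passed where only the 2 groups were fitted (adjusted p 0.0387). By day 42 the values were 1.98 to 4.59 CPM (median 2.7), around those of CTRL, and 2.41-fold those of day 14 (log2FC 1.27 ± 0.250, adjusted p 5.82e-05). The day 7 call (-0.58 ± 0.233, adjusted p 0.0360) was lost in 7 of 20 fits that left out 1 mouse, with adjusted p up to 0.0698 (CTRL replicates 3 and 10 and day 7 replicates 1, 2, 3, 8 and 10). Many markers of the epithelium were low at day 14: all 7 ciliated cell markers and 5 of 8 type 2 cell markers were called lower with none higher, and the summed type 2 markers lay between 6786 and 24784 CPM against 23081 to 28332 in CTRL. Of 7 type 1 cell markers, 3 were lower and 1 higher at day 14. At day 21, where *Pde4c* was still called lower, 2 type 2 cell markers were higher and none lower. On that day all 7 ciliated cell markers were lower, and of the type 1 cell markers 2 were lower and 1 higher. All 4 club cell markers were lower at days 14, 21 and 28. At day 28, where *Pde4c* did not pass, all 7 ciliated cell markers were lower. The part of these epithelial markers in the *Pde4c* result was not tested.

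*Pde4b* (ENSMUSG00000028525, chr4:102087543-102607259), the PDE4 gene known for its role in inflammatory cells, did not pass the test on any day. Its CTRL values spanned 101 to 189 CPM (median 126), those of day 14 85.2 to 199.8 (median 121) and those of day 42 112 to 226 (median 157). The BLEO groups lay across the CTRL range, with 6 to 10 mice of each group inside it. The log2FC ran from -0.11 ± 0.164 at day 7 to 0.28 ± 0.179 at day 42, with the lowest adjusted p 0.254 (lowest unadjusted p 0.121, lowest adjusted p by DESeq2 0.250), and the differences among BLEO days had an adjusted p of 0.443. Mice of the same group differed more in *Pde4b* than in *Pde4a*: the CTRL SD was 30.8 on a mean of 133 CPM, against 2.86 on 26.5 CPM. The SE of the log2FC was 0.157 to 0.179 for *Pde4b* and 0.0878 to 0.102 for *Pde4a*.

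**Figure D3:**
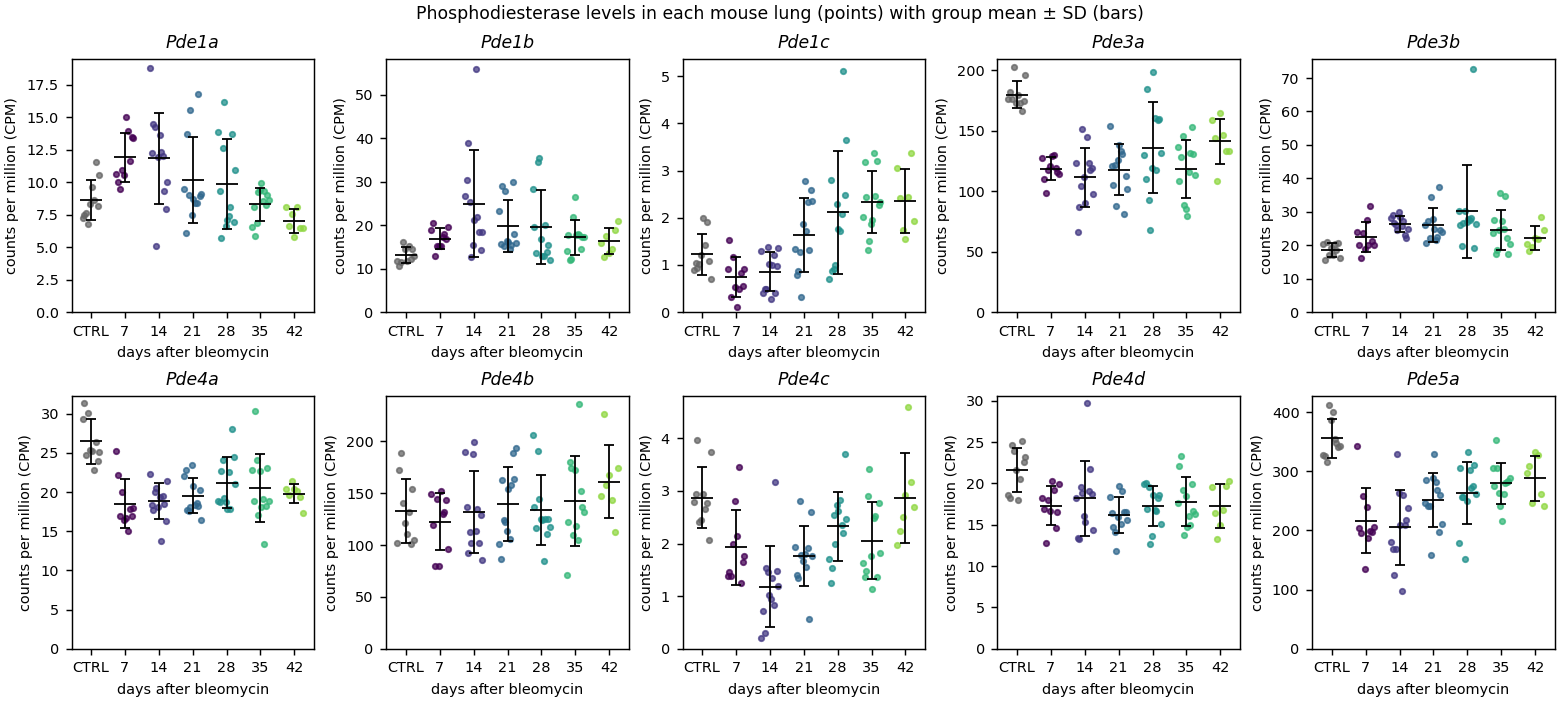
CPM of each phosphodiesterase (1 panel per gene) in every mouse, by group, with bars at the group mean ± SD; the vertical axes start at 0 and differ between panels. *Pde3a* of the day 7, 14, 21, 35 and 42 mice lay below all CTRL mice, *Pde4b* groups overlapped CTRL, and the highest *Pde3b* and *Pde1c* points belong to the same day 28 mouse.

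The PDE3 genes moved in opposite directions. *Pde3a* (ENSMUSG00000041741, chr6:141249269-141507448), which encodes the PDE3 enzyme of heart and vascular smooth muscle and of platelets, fell, and *Pde3b*, the PDE3 gene known from fat and liver where it serves insulin action, rose. *Pde3a* lay between 166 and 202 CPM in CTRL (median 176), between 98.6 and 129 at day 7 (median 118), between 66.3 and 151 at day 14 (median 114) and between 108 and 165 at day 42 (median 144). No mouse of days 7, 14, 21, 35 or 42 reached the CTRL range, and at day 28 2 of 12 did (range 68 to 198). The log2FC was -0.60 ± 0.123 at day 7 (adjusted p 4.29e-05), -0.69 ± 0.117 at day 14 (5.9e-07) and -0.40 ± 0.117 at day 28 (0.00359). At day 42 it was -0.35 ± 0.136 with an edgeR adjusted p of 0.0496, at the edge of the threshold although all 7 mice were below all CTRL mice. That call was lost in 14 of the 17 fits that left out 1 mouse, with adjusted p up to 0.133, and held only without CTRL replicate 5, day 42 replicate 1 or day 42 replicate 4. It was also lost without both libraries high in adipocyte markers (adjusted p 0.0512). *Pde3a* was 1.27-fold higher at day 42 than at day 14 (log2FC 0.34 ± 0.129, adjusted p 0.0322), a call lost in 5 of 19 such fits (without day 14 replicate 2, 3 or 7 or day 42 replicate 1 or 4, adjusted p 0.0524 to 0.0794). The comparison over the 6 BLEO days did not pass (adjusted p 0.0809).

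Endothelial markers were lower in the same lungs. At day 14, 7 of 9 were called lower and none higher, and their summed level lay between 2058 and 3934 CPM against 3939 to 5339 CPM in CTRL, with no marker at 0. At day 42, 4 of 9 were called lower, with sums of 2820 to 4752 CPM. Among the 16221 genes, those whose deviations from the group mean followed *Pde3a* most closely over the 75 mice were *Phactr2* (r = 0.913), *Mid2* (r = 0.890) and *Adgrf5* (r = 0.883), the last a receptor of lung endothelium and epithelium. These correlations describe mice that share dissection and library steps and carry no test. The part of the endothelial markers in the *Pde3a* result was not tested. A stretch of 741 bases, 5.82% of the *Pde3a* exons, is shared with the antisense gene *Gm28523*, whose reads can be kept apart only where counting used the strand of the kit.

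*Pde3b* (ENSMUSG00000030671, chr7:114415281-114539251) lay between 15.7 and 21.0 CPM in CTRL (median 19), between 22.2 and 29.9 at day 14 (median 26.3), between 20.6 and 37.3 at day 21 (median 24.6) and between 18.3 and 28.5 at day 42 (median 21.8). At day 14 all 12 mice were above all CTRL mice, at day 21 11 of 12 and at day 35 8 of 12. The log2FC was 0.50 ± 0.133 at day 14 (adjusted p 0.000914) and 0.49 ± 0.134 at day 21 (0.00155), while day 7 (0.26 ± 0.139, adjusted p 0.113) and day 42 (0.25 ± 0.153, adjusted p 0.228) did not pass. Both passed where only the 2 groups compared were fitted (adjusted p 0.0280 and 0.0210). The day 35 call (0.40 ± 0.134, adjusted p 0.0183) was lost without day 35 replicate 9 (adjusted p 0.0512).

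At day 28 the spread of *Pde3b* was set by 1 library. Replicate 10, the library high in muscle and fat markers, had 72.8 CPM, and the other 11 mice lay between 19.3 and 30.4 CPM (mean 26.3 ± 3.67). With it the log2FC at day 28 was 0.70 ± 0.134 (adjusted p 2.27e-05), and without it 0.50 (adjusted p 0.000107), so the call held without that library, at a value like that of day 14. The differences among the 6 BLEO days (adjusted p 0.0341) lost their call without it (adjusted p 0.114), and likewise without day 7 replicate 3 (0.0535), day 7 replicate 5 (0.0518) or day 42 replicate 3 (0.0504). At day 14, where all mice were above CTRL, no adipocyte marker was called higher, 2 of the 6 tested were called lower, and the sum of all 8 lay between 12.1 and 35.3 CPM against 12.9 to 41.2 CPM in CTRL. Day 7 replicate 8, the other library high in adipocyte markers, had the highest *Pde3b* of its group, 31.7 CPM. The genes most like *Pde3b* were *Prkar2b*, a regulatory subunit of the cAMP-dependent kinase (r = 0.722), *Neb* of skeletal muscle (r = 0.716) and *Egln3* (r = 0.711). Without day 28 replicate 10 those values were 0.565, 0.536 and 0.620.

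**Figure D4:**
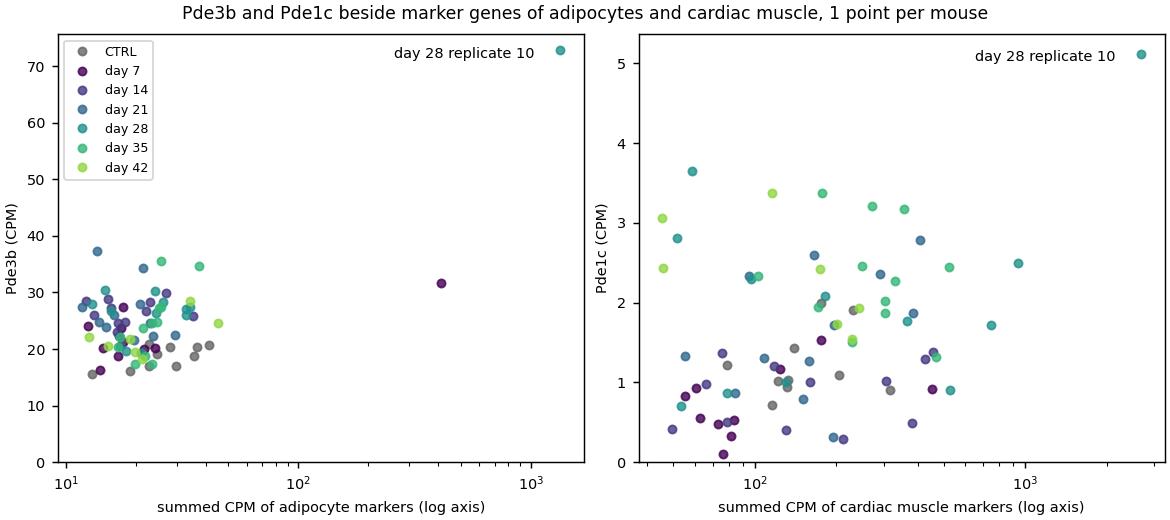
*Pde3b* beside the summed CPM of 8 adipocyte markers and *Pde1c* beside the summed CPM of 9 cardiac muscle markers (log axes), 1 point per mouse, coloured by group. Day 28 replicate 10 lies at the upper right of both panels, at 72.8 CPM of *Pde3b* and 5.11 CPM of *Pde1c*.

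*Pde5a* (ENSMUSG00000053965, chr3:122728947-122859374), the cGMP-specific enzyme of vascular smooth muscle, was lower than CTRL on days 7 to 35. Its values were 315 to 412 CPM in CTRL (median 346), 134 to 342 at day 7 (median 201), 97.5 to 329 at day 14 (median 209) and 159 to 329 at day 21 (median 253). They were 152 to 332 at day 28 (median 267), 216 to 352 at day 35 (median 281) and 241 to 333 at day 42 (median 297). From day 7 to day 35 all but 1 mouse of each group lay below all CTRL mice, and at day 42 5 of 7 did. The mean went from 355 ± 32.9 CPM in CTRL (SD, n = 10) to 205 ± 63.6 at day 14 (n = 12), a log2FC of -0.79 ± 0.126 (adjusted p 1.64e-07). The difference then narrowed, to -0.50 ± 0.126 at day 21 (0.00055), -0.44 ± 0.126 at day 28 (0.00347) and -0.35 ± 0.126 at day 35 (0.0285). At day 42 it was -0.30 ± 0.146 and did not pass (adjusted p 0.118), though it passed where only the 2 groups were fitted (adjusted p 0.00331). Day 42 was 1.40-fold above day 14 (log2FC 0.49 ± 0.139, adjusted p 0.00443). The day 35 call was lost without CTRL replicate 4 (adjusted p 0.0509) or day 35 replicate 7 (0.0519) and with no filter on low counts (0.0579).

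Markers of mural cells, where PDE5 is known to act, went both ways over these days. At day 7 the pericyte markers summed to 868 to 1229 CPM (median 993) against 1022 to 1161 (median 1090) in CTRL, with 3 of 8 called lower and none higher, and at day 14 to 1089 to 1439 CPM, with 4 called higher and 1 lower. The smooth muscle markers summed to 821 to 1816 CPM at day 14 (median 1018) against 857 to 1056 (median 968) in CTRL, with 4 of 9 called higher and 4 lower, and to 741 to 1197 CPM at day 28 (median 890), with 4 called lower and none higher. Endothelial markers were lower on the days when *Pde5a* was called: 5 of 9 at day 7 and 7 of 9 at days 14, 21, 28 and 35, with none higher. The part of these mural and endothelial markers in the *Pde5a* result was not tested. The genes most like *Pde5a* in their deviations from the group mean were *Scn7a* (r = 0.918), a sodium channel gene, *Itga1* (r = 0.903), the integrin alpha 1 chain, and *Smarca2* (r = 0.889), a chromatin remodeller. *Pde5a* deviated opposite to *Pde1b* (r = -0.666) and with *Pde3a* (r = 0.472). Within groups, mice low in *Pde5a* tended to be high in *Pde1b*. An overlap of 55 exon bases with the antisense gene *4930447N08Rik* makes up 0.559% of the *Pde5a* exons.

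The PDE1 genes were called higher than CTRL on different days: *Pde1a* on days 7 and 14, *Pde1b* on days 14, 21 and 28, and *Pde1c* on days 28, 35 and 42. The fitted log2FC of *Pde1b* was above 0 on all 6 days, and no test compared the courses of these genes. *Pde1b* (ENSMUSG00000022489, chr15:103503034-103530052), known from neurons and from activated macrophages, was called higher on days 14, 21 and 28. It lay between 10.7 and 16.2 CPM in CTRL (median 12.6), between 12.6 and 56 at day 14 (median 21.6), between 14.6 and 30 at day 21 (median 16.2) and between 11.9 and 35.4 at day 28 (median 16.2). At day 14 9 of 12 mice were above all CTRL mice, with replicates 8 (56 CPM) and 3 (38.9 CPM) highest. The log2FC was 0.93 ± 0.184 at day 14 (adjusted p 1.33e-05), 0.59 ± 0.184 at day 21 (0.00536) and 0.58 ± 0.184 at day 28 (0.008). At days 7, 35 and 42 it was 0.37, 0.39 and 0.31, and the adjusted p was 0.110, 0.101 and 0.289. Those 3 days passed when only the 2 groups compared were fitted (adjusted p 0.0016, 0.00664 and 0.0218). Day 42 was lower than day 14 (log2FC -0.62 ± 0.204, adjusted p 0.0143), a call lost without day 14 replicate 8 (-0.45, adjusted p 0.0630) and with only the 2 groups fitted (0.0635). The difference among BLEO days (adjusted p 0.0246) was lost without day 14 replicate 8 (0.155) or replicate 3 (0.0792).

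Markers of monocyte-derived macrophages were high in the same lungs. At day 14 all 8 were called higher, their sum lay between 1469 and 8987 CPM against 359 to 429 CPM in CTRL, and replicate 8 was the highest of the group in this sum too. Its neutrophil markers also summed to 579 CPM, beside a group median of 73.1 CPM and 40.4 to 119 CPM in CTRL. At day 42 7 of the 8 macrophage markers were called higher, with sums of 577 to 3332 CPM. At day 7, where *Pde1b* did not pass, 7 of the 8 were called higher as well. Fibroblast markers were high as well, with sums of 6307 to 16434 CPM at day 14 against 2964 to 3898 CPM in CTRL (5 of 9 called higher, 3 lower). The mouse highest in this sum was also highest in *Pde1b* at day 21 (replicate 10), day 28 (replicate 5), day 35 (replicate 6) and day 42 (replicate 7). At days 7 and 14 it was another mouse. The part of these macrophage, neutrophil and fibroblast markers in the *Pde1b* result was not tested. The genes most like *Pde1b* were *Pcdh7* (r = 0.857), a protocadherin gene, *Gm6093* (r = 0.854), a gene of very low count, and *Col7a1* (r = 0.852), the anchoring fibril collagen.

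*Pde1a* (ENSMUSG00000059173, chr2:79834453-80129458), a PDE1 gene of smooth muscle and fibroblasts, lay between 6.77 and 11.6 CPM in CTRL (median 8.27), between 9.50 and 15 at day 7 (median 11.3) and between 5.12 and 18.8 at day 14 (median 12.1). At day 42 it lay between 5.75 and 8.10 (median 6.64), with 4 of 7 mice below all CTRL mice. The log2FC was 0.47 ± 0.161 at day 7 (adjusted p 0.0135) and 0.46 ± 0.155 at day 14 (0.0081), then 0.23, 0.20 and -0.05 at days 21, 28 and 35, and -0.30 ± 0.182 at day 42 (adjusted p 0.232). Only the early rise passed against CTRL, and day 42 was lower than day 14 by -0.76 ± 0.177 on the log2 scale (adjusted p 0.000615). With only the 2 groups fitted, the fall at day 42 passed (adjusted p 0.0480). The summed fibroblast markers, collagens included, went from 2964 to 3898 CPM in CTRL to 6307 to 16434 CPM at day 14, with 5 of 9 called higher and 3 lower, and to 3516 to 4875 CPM at day 42; their part in the *Pde1a* result was not tested. Its most similar genes were *Dnajc10* (r = 0.781), an endoplasmic reticulum chaperone, *Pdgfc* (r = 0.736), a PDGF ligand, and *Prrx1* (r = 0.735), a mesenchymal transcription factor, and *Pde1b* was the member most like it (r = 0.617).

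*Pde1c* (ENSMUSG00000004347, chr6:56069804-56569103), a PDE1 gene of heart muscle and proliferating smooth muscle, was counted with only 1 to 51 reads per library, so single reads matter to each value. It lay between 0.711 and 2.00 CPM in CTRL (median 1.06), between 0.102 and 1.53 at day 7 (median 0.692), between 0.284 and 1.38 at day 14 (median 0.996), between 1.31 and 3.37 at day 35 (median 2.30) and between 1.54 and 3.37 at day 42 (median 2.42). At days 7 and 14 no mouse was above all CTRL mice and 5 of each group were below all of them, while at day 35 8 of 12 were above. Every day 42 mouse was above every day 14 mouse. The log2FC was -0.71 ± 0.323 at day 7 (adjusted p 0.0627) and -0.49 ± 0.303 at day 14 (0.146), and 0.92 ± 0.286 at day 35 (0.00916) and 0.94 ± 0.321 at day 42 (0.0242). Day 42 was 2.7-fold above day 14 (log2FC 1.43 ± 0.313, adjusted p 0.000248), and the 6 BLEO days differed (adjusted p 9.09e-07), the lowest value of the 10 genes in that comparison.

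The *Pde1c* call at day 28 was lost without the library high in muscle markers. Replicate 10 had 5.11 CPM and the other 11 mice between 0.703 and 3.65 CPM, and the log2FC of 0.78 ± 0.287 (adjusted p 0.0210) became 0.59 (adjusted p 0.0787) without it. The day 42 call was lost without day 42 replicate 1 (adjusted p 0.0545) or replicate 6 (0.0623), and with no filter on low counts (0.0520). The day 7 difference passed without CTRL replicate 10 (0.0483) or day 7 replicate 2 (0.0225) or 4 (0.0425), with DESeq2 (0.0482) and with only the 2 groups fitted (0.0382). The 9 cardiac muscle markers, which in mouse lung can come from the muscle sleeves of the pulmonary veins, summed to 103 to 520 CPM at day 35 and 45.5 to 242 CPM at day 42, against 78.9 to 317 CPM in CTRL, and none was called on either day by edgeR (at day 35, 5 had an unadjusted p under 0.05 and DESeq2 called 3; at day 42, 0 and 0). The genes most like *Pde1c*, *Gm38375*, *Igfals* and *Prkaa2*, followed it less closely (r = 0.529, 0.521 and 0.515) than those named for the other members.

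Day 42 against day 14 sets the latest group beside the one with the most genes called against CTRL. Of the 10 genes, 4 were higher at day 42 (*Pde1c*, *Pde3a*, *Pde4c* and *Pde5a*) and 2 lower (*Pde1a* and *Pde1b*), where 15.2% of all genes were called higher and 18.8% lower. The median log2FC of the 10 was 0.18, beside -0.0066 for all genes. The comparison over all 6 BLEO days called 6 of the 10 (*Pde1a*, *Pde1b*, *Pde1c*, *Pde3b*, *Pde4c* and *Pde5a*), where 48.3% of all genes were called. *Pde4a*, *Pde4b* and *Pde4d* were called in neither. Ordered by mean, CTRL was the highest of the 7 groups for *Pde3a*, *Pde4a*, *Pde4d* and *Pde5a* and the lowest for *Pde1b* and *Pde3b*. The gap from CTRL to the next group exceeded the larger SD of that pair for *Pde1b*, *Pde3a*, *Pde3b*, *Pde4a* and *Pde5a* and not for *Pde4d*. Among the 6 BLEO groups, neighbours in the order differed by less than the larger SD for all 10 genes, with the exception of day 35 and day 42 of *Pde1a*.

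Of 14 further phosphodiesterase genes, 7 had enough counts to be tested, and 3 of these moved most. *Pde8b*, a high-affinity cAMP enzyme, went from 72.1 ± 6.05 CPM in CTRL to 27.9 ± 10.6 at day 14 (SD, log2FC -1.37, edgeR adjusted p 2.3e-10) and was called lower on days 7 to 35, with -0.43 at day 42 (adjusted p 0.0952). *Pde7b*, also specific for cAMP, was called lower on days 7 to 28 and went from 49.5 ± 6.48 to 27.6 ± 7.80 CPM at day 14 (log2FC -0.84, adjusted p 3.05e-07). *Pde10a*, a dual enzyme best known from the striatum, went from 2.22 ± 0.538 to 7.26 ± 5.26 CPM at day 14 (log2FC 1.71, adjusted p 9.65e-08), was higher at day 21 too (0.80, adjusted p 0.00929), and stood at 2.27 ± 0.353 CPM at day 42. *Pde7a* was called lower at day 7 (-0.20, adjusted p 0.0384), *Pde6d* higher at day 21 (0.18, adjusted p 0.0338), and *Pde8a* (-0.23, adjusted p 0.0195) and *Pde9a* (-0.35, adjusted p 0.00714) lower at day 35. In sum 3 were lower at day 7, 1 higher and 2 lower at day 14, 2 and 2 at day 21, 0 and 2 at day 28, 0 and 3 at day 35, and none at day 42 (1 at an unadjusted p under 0.05, 0 by DESeq2), with medians of the 7 log2FC between -0.228 and -0.0258. From day 7 to day 42 the shares of all genes called lower were 21%, 29.9%, 25.8%, 19.2%, 13.1% and 11%. The shares called higher were 24.8%, 32.4%, 28.3%, 24.1%, 16.9% and 13.7%. *Pde6a*, *Pde6b*, *Pde6c*, *Pde6g*, *Pde6h* and *Pde11a* had at most 10 counts in any library. *Pde2a* had 0 to 3 counts, but 64.3% of its exon bases are also annotated to *Gm45837* on the same strand, so its reads could not be told apart from those of *Gm45837* (0 to 5 counts) and no level is drawn from it.

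The counts of the members were set beside those of the rest of the cyclic nucleotide pathway, read against the shares of all genes called that are given above. Adenylyl cyclases, which make cAMP, were called lower more often than higher: of 9 tested, 6 were lower and none higher at days 7 and 42, 4 lower and 2 higher at days 14 and 21, 4 and 3 at day 28, and 4 and 1 at day 35. Their median log2FC was -0.51 at day 7 and 0.0387 at day 14. *Adcy8* went from 58.7 ± 5.03 to 28.8 ± 9.61 CPM at day 14 (log2FC -1.02, adjusted p 9.24e-08), *Adcy9* from 42.3 ± 3.56 to 24.8 ± 2.80 at day 42 (-0.77, adjusted p 0.000156) and *Adcy5* from 44.7 ± 4.75 to 26.8 ± 9.19 at day 35 (-0.74, adjusted p 6.22e-06). Guanylyl cyclases and nitric oxide synthases raise cGMP, and their list also holds the natriuretic clearance receptor *Npr3*, which is not a cyclase. Of the 8 genes of this list tested, 5 were lower and 2 higher at day 14. The inducible synthase *Nos2* rose from 5.4 ± 1.49 to 18.4 ± 5.14 CPM at day 21 (log2FC 1.76, adjusted p 7.73e-09), while the natriuretic clearance receptor *Npr3* (-1.09, adjusted p 4.54e-07) fell on that day and the cyclase subunit *Gucy1a2* (-0.93, adjusted p 0.0112) was lower at day 7.

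All 12 Gs-coupled receptors, which switch on the adenylyl cyclases, were called at day 14, 5 higher and 7 lower. The prostaglandin E2 receptors *Ptger4* (8.91 ± 1.39 to 26.6 ± 8.61 CPM, log2FC 1.58, adjusted p 1.08e-11) and *Ptger2* (9.86 ± 1.28 to 21.2 ± 2.67 CPM, 1.10, adjusted p 6.71e-12) rose, and the adrenergic receptor *Adrb3* fell (11.0 ± 2.53 to 4.34 ± 1.40 CPM, -1.35, adjusted p 0.000118). Of 16 effectors, 6 were higher and 3 lower at day 14. The kinase inhibitor *Pkib* rose (log2FC 1.38, adjusted p 5.77e-12), the cAMP-activated exchange factor *Rapgef4* fell (-0.55, adjusted p 1.84e-06), and the cGMP-dependent kinase *Prkg2* was lower at day 42 (35.6 ± 2.71 to 14.6 ± 5.06 CPM, -1.29, adjusted p 4.47e-05). Of 13 anchoring proteins and PDE partners, 6 were lower and 1 higher at day 14. *Arrb2*, a beta-arrestin that brings PDE4 to receptors, was the one that rose (0.72, adjusted p 1.15e-08), and *Akap7* fell (-0.50, adjusted p 4.99e-07). *Akap6*, an anchor of heart muscle, was called higher at day 28 (0.65, adjusted p 0.0273), where replicate 10 had 24 CPM and the other 11 mice 1.73 to 8.38 CPM, and without that library the call was lost (0.25, adjusted p 0.339). Of 8 immediate genes that respond to cAMP among other signals, 5 were lower at day 21 and none higher, where 25.8% of all genes were lower. Day 21 had the most of these calls: on the other days 1 to 3 of the 8 were lower, with 2 at day 14 (29.9% of all genes), and 1 was higher at day 28. Among the days on which each was called, *Fos* (-0.96, adjusted p 0.000219) and *Dusp1* (-0.88, adjusted p 0.000408) differed most at day 35. For *Nr4a1* (-0.71, adjusted p 0.0428) that day was day 7. Both cyclic nucleotide exporters were higher from day 14 to day 35, *Abcc4* by 0.67 at day 21 (adjusted p 4.94e-10) and *Abcc5* by 0.33 at day 35 (adjusted p 0.00274).

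**Figure D5:**
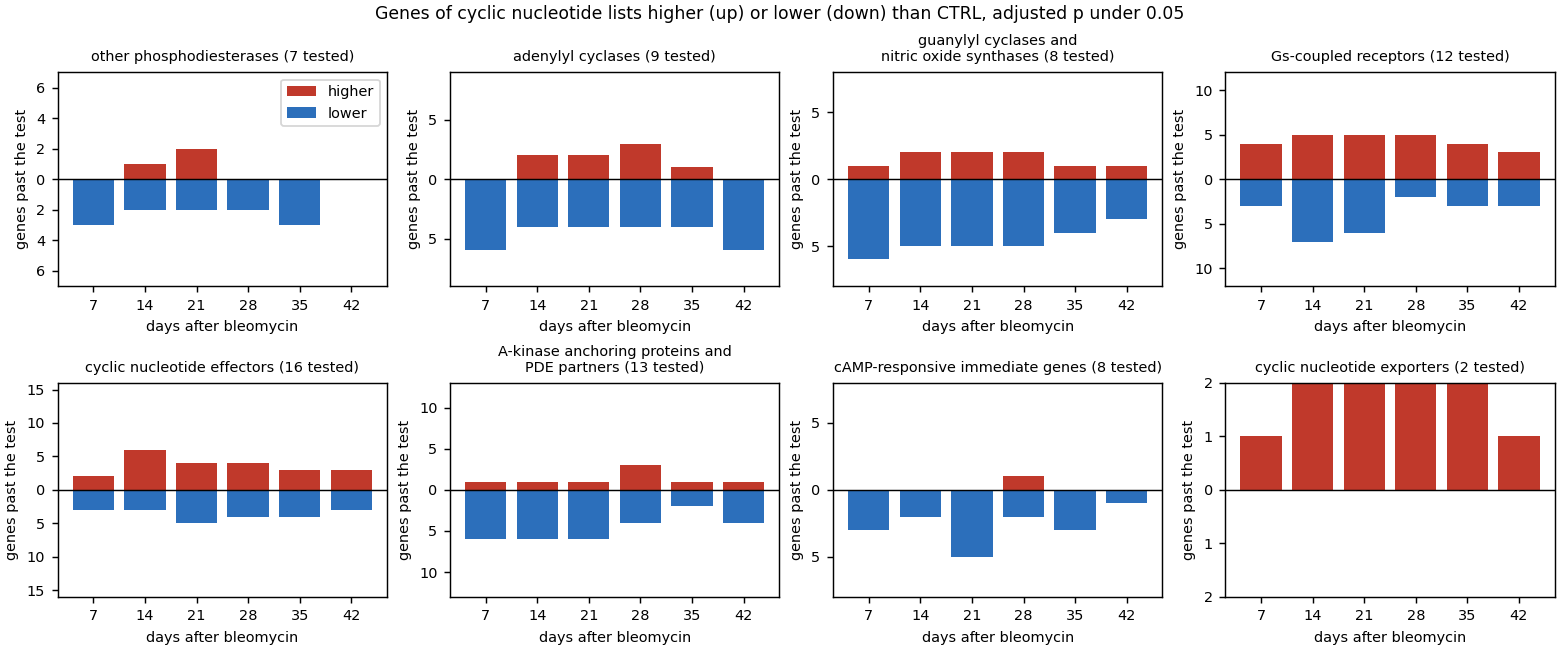
Number of genes called higher (up) or lower (down) than CTRL on each day after bleomycin in 8 lists of the cyclic nucleotide pathway, with vertical axes spanning the genes tested per list. Adenylyl cyclases had more genes lower than higher on all 6 days, and both exporters were higher from day 14 to day 35.

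The genes nearest to the PDE4 members differed between members. Those of *Pde4a* were *Foxk1* (r = 0.629), *Nfic* (r = 0.608), both transcription factors, and *Myh10* (r = 0.598), a non-muscle myosin. Those of *Pde4b* were *Edn1*, which encodes endothelin 1 (r = 0.665), *Dusp6*, an ERK phosphatase (r = 0.606), and *Fam13c* (r = 0.554). *Pde4c* followed *9930012K11Rik* (r = 0.612), the receptor gene *Fgfr3* (r = 0.596) and *Pdlim2* (r = 0.579), and *Pde4d* followed *Sos2* (r = 0.784), *Arhgap21* (r = 0.742) and *Aff4* (r = 0.740). The 4 PDE4 genes deviated little with each other, with r from -0.175 (*Pde4b* with *Pde4c*) to 0.132 (*Pde4c* with *Pde4d*), while *Pde4d* deviated with *Pde3a* (r = 0.501). All r are Pearson correlations of the deviations of log2 CPM from the group mean over 75 mice, given as a description.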

How the data were processed

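Per the labels, poly(A) RNA of the inferior lobe was made into strand-specific libraries (NEBNext Ultra II Directional) and sequenced on an Illumina NextSeq. The authors aligned the reads with STAR 2.7.0f to GRCm38 and deposited raw counts per Ensembl gene; the counting program and its strand setting are not given in the sources used here. All 55536 gene identifiers matched GENCODE M21, which gave symbols, coordinates and exon lengths. The 10 members, and the pathway and marker lists, were chosen with earlier results of these data known. Counts were fitted with edgeR 4.0.16 (R 4.3.3; filterByExpr, TMM factors, 1 mean per group over all 75 mice, quasi-likelihood F test), and p-values were adjusted by Benjamini-Hochberg over 16221 genes, with a threshold of 0.05. CPM used TMM-scaled library sizes, and log2 CPM a prior count of 2. SE is the log2FC divided by the square root of F. Total counts of 9240291 to 14665247 per library limit precision for low genes such as *Pde1c*. Nothing in the labels beyond their numbering shows how mice shared cages or batches, and p-values weigh each difference against the spread between these mice. The scripts were tested on simulated data. Alternatives were 9: DESeq2 1.42.0, library size only, upper quartile factors, no filter, at least 10 counts in every mouse, only the groups compared, a replicate block, leaving out each mouse, and an absolute log2FC of at least 0.5. A fit without both libraries high in adipocyte markers was added after seeing the data. Named genes were the 10 members, all other phosphodiesterases, up to 3 called genes per pathway list with the largest log2FC on any day and a mean log2 CPM above 0, and the 3 genes most correlated with each member. Promoter sequences are from RefSeq.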

Additional observations from a re-analysis of the deposited data

Results flagged for a closer look

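For 6 of the 10 phosphodiesterases the difference from CTRL was not the same on day 42 as on day 14, by the test of day 42 against day 14 in the same edgeR fit. That test called 15.2% of all genes higher at day 42 and 18.8% lower. Among the members the change was -0.76 on the log2 scale for *Pde1a*, -0.62 for *Pde1b*, 1.43 for *Pde1c*, 0.34 for *Pde3a*, 1.27 for *Pde4c* and 0.49 for *Pde5a*. *Pde1b* depended on day 14 replicate 8 and *Pde3a* on any of 5 mice, as given above. In the groups small enough to be screened for single mice that stand apart by Dixon's test (CTRL, day 7 and day 42), 0 of 30 combinations of gene and group held one, where chance alone gives about 1 in 20. Groups of 12 mice were not screened in this way, which includes day 28 with its replicate 10.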

How the results depend on the processing

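An absolute log2FC of at least 0.5 as a further condition left 4 members called at day 14, 4 at day 21, 3 at day 28, 2 at day 35 and 1 at day 42, where the test alone called 8, 7, 7, 6 and 4. At day 7 *Pde3a* (-0.60), *Pde4a* (-0.51), *Pde4c* (-0.58) and *Pde5a* (-0.72) kept their calls. The share of all genes passing this condition was not computed, so these counts have no background beside them. The day 42 count was 1 with no filter on low counts (38610 genes tested), 8 with only the 2 groups fitted and between 2 and 4 with 1 mouse left out. Mice of the same replicate number in different groups were not alike in general. Their correlations ran from -0.538 to 0.569 (median 0.00574, 204 pairs, 63 of them over 0.1), and 7 of 75 mice correlated best with their own number. Such correlations cannot exclude a step shared by mice of the same number, since other differences between mice enter them too. With the replicate block 2 members were called at day 42, and 75 of 80 results on single members kept direction and call; *Pde1c* lost its call at day 28 (adjusted p 0.0661), *Pde3a* (0.0834) and *Pde4d* (0.0559) theirs at day 42, and *Pde4c* gained one at day 35 (0.0242). Differences near 0 changed sign: *Pde4c* at day 42 became -0.000996 with upper quartile factors and -0.022 with the replicate block. With 1 mouse left out, *Pde4c* at day 42 ran from -0.16 to 0.063, *Pde4b* from -0.075 to 0.054 at day 14 and from -0.057 to 0.075 at day 28, *Pde1a* at day 35 from -0.088 to 0.0084, and *Pde4d* on day 42 against day 14 from -0.11 to 0.0084; none of these passed the test. The cause of these shifts was not tested. Of 80 single-member results, DESeq2 kept 79, library size only 78, upper quartile factors 79 and no filter 73; fitting only the groups compared kept 58 of 70, with 10 gaining a call. At least 10 counts in every mouse left 13099 genes and 8 members (without *Pde1c* and *Pde4c*), all 64 results kept. Without both libraries high in adipocyte markers, 77 of 80 were kept. Depth limits *Pde1c* and *Pde4c*, with as few as 1 and 2 counts in a library.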
